A study of Mus musculus with 4 samples.

Results

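Smooth muscle cells shorten by sliding actin filaments past myosin, and they carry forms of the contractile proteins that most other cells lack or make sparingly. Calcium bound to calmodulin activates myosin light chain kinase, which phosphorylates the regulatory light chain of myosin and so lets the motor work. Proteins lying along the actin filament, among them calponin, caldesmon and tropomyosin, tune how myosin meets actin. Fibroblasts in culture can also make several of these proteins, and alpha smooth muscle actin is the usual marker of the contractile fibroblast called the myofibroblast.

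The 10 genes described here encode the main proteins of that apparatus: the actins Acta2 and Actg2, the actin-associated proteins Cnn1, Tagln, Cald1, Tpm2 and Smtn, the myosin subunits Myh11 and Myl9, and the kinase Mylk. They were chosen by name as a functional family, after the large genotype differences of Actg2, Cnn1 and Smtn in these same arrays were known. Their differences between genotypes are therefore given as a description, without a test. Of 12393 genes with a single symbol on the array, the 10 genes had 19 probe sets, all of which are described.

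The samples were cultures of mouse embryonic fibroblasts, labelled C57BL/6J and taken at embryonic day E10.0, grown in DMEM with fetal calf serum. All came from one mating, per the labels, between a Med1+/- p53-/- male and a Med1+/- p53+/- female. The groups were Med1+/+ p53-/- and Med1-/- p53-/-, with 2 arrays each, so the absence of p53 was common to both. The Med1 protein belongs to Mediator, which links transcription factors to RNA polymerase II. The labels do not say how many embryos or cultures stood behind each genotype, so the spread between arrays of a genotype may be technical, and the loss of Med1 cannot be told apart from any other difference between the embryos.

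The deposited signals were linear, and their level differed between arrays. Their median was 76.25 and 106.65 for Med1+/+ and 36.1 and 51.4 for Med1-/-. Log2 values below are of quantile-normalized signal plus a pseudocount of 1.7, and each difference is Med1-/- minus Med1+/+. Med1 itself, on its brightest probe set, fell from 664.6 and 885.6 to 25.4 and 40.2. Xist, the RNA of the inactive X chromosome, fell from 6723.6 and 7499.6 to 211.2 and 159.6, so the genotypes also differed in a transcript tied to the X chromosome. Signal from the 3' end of the Actb control over that from its 5' end, a gauge of RNA integrity, was 1.52 and 1.38 for Med1+/+ against 1.28 and 1.22 for Med1-/-. For Gapdh the same ratio was 0.947 and 0.90 against 1.11 and 1.0, the opposite order. The part of RNA integrity in the results below was not tested.

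The genotypes differed across most of the array. Of 8923 features tested, 39.1% were called higher and 36.2% lower with Med1 absent, where a call means an adjusted p under 0.05 (limma with Benjamini-Hochberg adjustment). Of the 10 genes, 9 passed the filter on low signal, and of these 7 were called higher (Acta2, Actg2, Cnn1, Tagln, Smtn, Myl9 and Tpm2) and 2 lower (Mylk and Cald1). Both values of one genotype lay beyond both of the other for 9 of the 9, as they did for 88.2% of all features. Because the genes were picked with this comparison known, nothing is read from these counts. The median difference of the 9 was 1.15, and that of all features was 0.09.

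**Figure D1:**
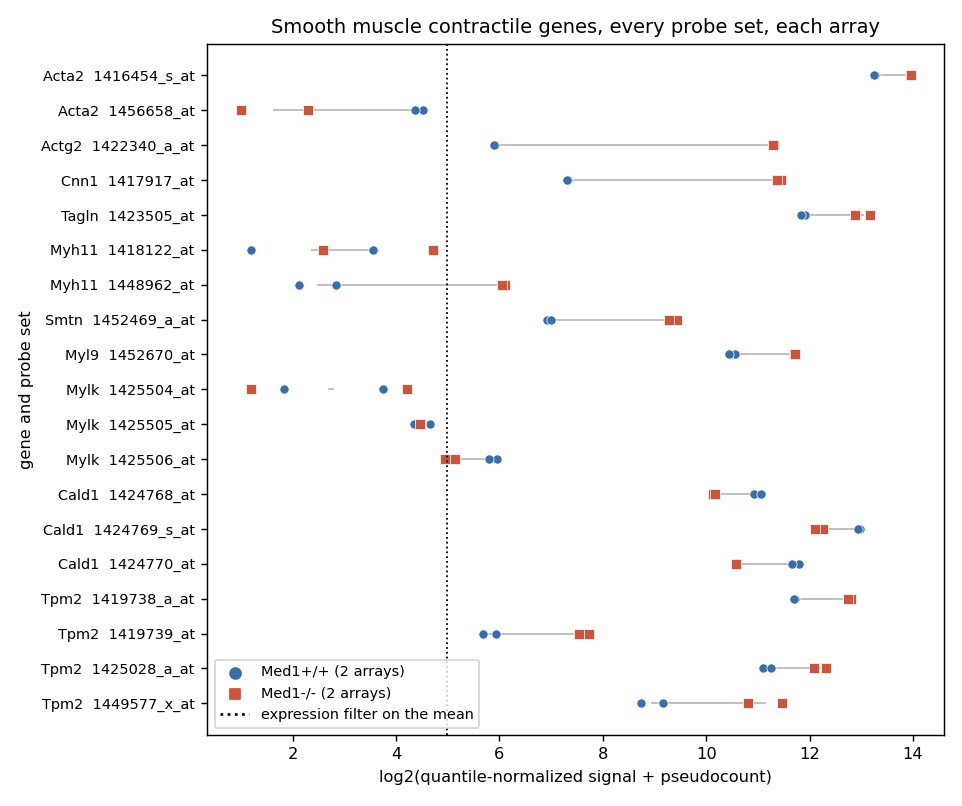
Signal of every probe set of the 10 genes on each array, as log2 of quantile-normalized signal plus 1.7 (horizontal axis), with the gene and probe set on the vertical axis. Circles are the 2 Med1+/+ arrays, squares the 2 Med1-/- arrays, grey lines join the genotype means, and the dotted line is the filter on the mean. Actg2 and Cnn1 show the widest gaps among probe sets above the filter, all 3 Cald1 probe sets lie lower in Med1-/- cells, and the probe sets left of the dotted line are dim.

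The actins form the thin filament along which myosin pulls. Actg2 encodes the gamma actin of visceral smooth muscle. Its single probe set, 1422340_a_at, gave deposited signals of 65.4 and 92.4 for Med1+/+ against 1652.1 and 2398 for Med1-/-. The lowest Med1-/- value thus lay far above the highest Med1+/+ value. The mean log2 value was 5.91 ± 0.0059 (SD, n = 2) in Med1+/+ and 11.3 ± 0.018 (SD, n = 2) in Med1-/- cells, a difference of 5.39 (SE 0.11). Of all features tested, 1 had a larger rise.

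Acta2 encodes alpha smooth muscle actin, the chief actin of vessel walls. On 1416454_s_at its deposited signals were 10295.9 and 11960.3 for Med1+/+ against 14574 and 15707.1 for Med1-/-. The signal was high in both genotypes and the groups did not overlap. The difference was 0.70 (SE 0.08), a 1.62-fold change. Setting array medians equal gave a larger difference of 1.51, and setting 75th percentiles equal gave 1.33. The direction turned under scaling on the Bacillus subtilis control transcripts, to -0.44.

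The probe sets of Acta2 did not run together. The second, 1456658_at, gave 23.0 and 29.1 for Med1+/+ against 0.2 and 2.8 for Med1-/-, a difference of -2.79 at signals under the filter. The suffix _s_at marks a probe set that can also match transcripts of other genes, and a match of the bright Acta2 probe set to the transcripts of Actg2 or Acta1, which rose, was not tested. A direction for Acta2 therefore rests on the bright probe set alone.

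Calponin, transgelin, caldesmon, tropomyosin and smoothelin all bind actin. Cnn1, the smooth muscle calponin gene, gave 176.3 and 243.6 for Med1+/+ against 1813.4 and 2555.1 for Med1-/- on 1417917_at. Its mean log2 value went from 7.32 ± 0.016 (SD, n = 2) to 11.4 ± 0.048 (SD, n = 2), a difference of 4.09 (SE 0.10) or 17.0-fold. The groups were well apart, and 4 of all features tested had a larger rise.

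Smtn encodes smoothelin, a marker of contractile smooth muscle. Its probe set 1452469_a_at read 132.9 and 196.9 against 408.9 and 536, with no overlap. The difference was 2.40 (SE 0.12), a 5.29-fold change, and 62 features differed by more in this direction. Actg2, Cnn1 and Smtn stayed higher under all 6 scalings of the arrays and were called under each. These were the 3 genes whose large differences were known beforehand, so nothing is read from this.

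Tagln encodes transgelin, also known as SM22, an early marker of the smooth muscle lineage. Its signals on 1423505_at were 3851.9 and 4896.8 for Med1+/+ against 7008.1 and 7499.7 for Med1-/-. The difference was 1.15 (SE 0.12), and the Med1-/- arrays, at log2 values of 13.17 and 12.88, spread more than the Med1+/+ arrays at 11.92 and 11.83. It was 1.80 with array medians set equal and -0.15 on the Bacillus subtilis scale.

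Tpm2 encodes beta tropomyosin, which winds along the actin filament and governs its access to myosin. Its 4 probe sets shared a direction, as 1419738_a_at gave a difference of 1.07 (SE 0.09), 1425028_a_at 1.02, 1419739_at 1.84 and 1449577_x_at 2.18. On the brightest, the deposited signals were 3345.6 and 4447.1 for Med1+/+ against 5276.4 and 6935.7 for Med1-/-. The groups did not overlap on any of the 4 after normalization, though on 1425028_a_at the deposited signals did, at 2177.3 and 3455 against 2960.0 and 5076.7. On 1449577_x_at the replicates were far apart, at 457.8 and 854.8 and at 1125.6 and 2714.1, and the suffix _x_at marks probes with likely matches elsewhere. The brightest probe set gave 1.71 with array medians set equal and -0.24 on the Bacillus subtilis scale.

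Cald1 encodes caldesmon, which inhibits the actomyosin ATPase and is made in a long smooth muscle form and a shorter form of other cells. It differed from the genes above in direction. The brightest probe set, 1424769_s_at, read 8079.1 and 9940.2 for Med1+/+ against 3395.1 and 4356.3 for Med1-/-. The difference was -0.78 (SE 0.09), so that Med1+/+ cells had 1.72-fold more signal. Both other probe sets lay lower in Med1-/- cells as well, 1424770_at by -1.15 and 1424768_at by -0.85, with no overlap on any of the 3. The size depended on the scaling: the brightest probe set gave -0.15 once array medians were equalised and -0.34 once 75th percentiles were, neither of which was called. Which caldesmon form each probe set reads was not analysed here.

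The thick filament is built from myosin heavy and light chains. Myl9 encodes the regulatory light chain that the kinase phosphorylates in smooth muscle. Its probe set 1452670_at gave 1540.9 and 2020.8 for Med1+/+ against 2223.7 and 3325.7 for Med1-/-. Both Med1-/- values exceeded both Med1+/+ values, and the difference was 1.21 (SE 0.096) or 2.31-fold. On the Bacillus subtilis scale it was -0.26.

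Myh11, the smooth muscle myosin heavy chain gene and the most specific marker of the differentiated cell, was dim. On 1448962_at the signals were 5.9 and 3.8 for Med1+/+ against 35.7 and 48.9 for Med1-/-, higher in Med1-/- without overlap. Its mean log2 value lay under the filter, so it was left out of the fit, and its difference of 3.59 (SE 0.46) is inexact at these levels. With the filter lowered to the 20th percentile or removed, Myh11 was also called higher. The second probe set, 1418122_at, gave 10.7 and 0.8 against 2.6 and 19.2, and there the genotypes overlapped.

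Mylk encodes the myosin light chain kinase, the calcium-dependent switch of the apparatus, in a long form and a shorter smooth muscle form from separate promoters. Its brightest probe set, 1425506_at, gave 67.7 and 85.4 for Med1+/+ against 16.5 and 25.8 for Med1-/-. The difference was -0.83 (SE 0.26), the largest standard error among the 9 genes fitted. Its call was lost without either of the Med1+/+ replicates, at -0.75 without replicate 1 and -0.89 without replicate 2, and also without the filter. The other probe sets, 1425505_at with a difference of -0.03 and 1425504_at with -0.08, were under the filter and overlapped between genotypes. Thus the kinase gene was dim in both genotypes and no probe set of it had a higher mean in Med1-/- cells.

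Promoter sequence was available for 7 of the 10 genes in RefSeq windows of the GRCm38.p6 build, each running from 250 bases before to 50 after a transcript start. Many smooth muscle genes are known to be controlled by serum response factor, SRF, which binds a 10-base element named the CArG box. The sequences are shown because they differ in this element among genes that were higher together. Myl9 held an exact CArG box, CCTAATAAGG, starting 161 bases before the transcript start of its window, and a copy with 1 letter changed, CCTTGTAAGG, at 99. Acta2 had no exact box in its window but had copies with 1 letter changed at 84 and 34 bases. Both copies lay within the annotated span of Acta2, whose outer end is at 34255585 on chr19. Cnn1 held neither an exact box nor a near copy. In the lines below capitals mark the exact box of Myl9 and the near copies of Acta2, on the strand of the gene, and the Myl9 and Cnn1 stretches end before the outermost annotated start of the gene.

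Myl9, chr2:156775214-156775407, plus strand: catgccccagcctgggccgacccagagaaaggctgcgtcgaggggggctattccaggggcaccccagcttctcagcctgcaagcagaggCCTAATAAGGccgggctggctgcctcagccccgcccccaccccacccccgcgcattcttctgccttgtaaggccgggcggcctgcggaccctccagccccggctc

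Acta2, chr19:34255438-34255467, minus strand: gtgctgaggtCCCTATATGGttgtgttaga

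Acta2, chr19:34255388-34255417, minus strand: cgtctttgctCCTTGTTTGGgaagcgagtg

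Cnn1, chr9:22099003-22099220, plus strand: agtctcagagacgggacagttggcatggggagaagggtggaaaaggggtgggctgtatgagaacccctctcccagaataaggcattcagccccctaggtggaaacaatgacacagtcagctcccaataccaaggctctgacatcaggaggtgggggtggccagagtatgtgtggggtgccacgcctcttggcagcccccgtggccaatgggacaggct

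Over the 8 windows of the 7 genes (Cald1 had 2), both strands were searched. An exact CArG box was in 1 of 8, against 1.63% of all 32841 windows in the table. A box with at most 1 letter changed, which includes the exact one, was in 3 of 8, those of Acta2, Myl9 and 1 of Cald1, against 21.1% of all. The windows of Cnn1, Smtn, Mylk and Tpm2 held none. The Mylk window lay inside the gene, from 34784700 on chr16 against a gene start at 34745199. Which Mylk form it belongs to was not analysed. The TEAD-factor motif CATTCC was in 4 of 8 against 14.7%, the E-box CANNTG in 7 of 8 against 72.3%, and TATAAA in 1 of 8 against 13.6%. Near copies of the CArG box were found beside genes higher (Acta2, Myl9) and lower (Cald1) in Med1-/- cells, and elements outside the windows were not searched.

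Most of these proteins have relatives that cells outside muscle use for the same task. Of 12 such genes tested, 7 rose (Tagln2, Cnn2, Tpm3, Myl6, Tpm1, Myh9 and Myl12a), 3 fell (Myl12b, Cnn3 and Tpm4) and 2 did not pass. Of all features, 39.1% were called higher and 36.2% lower. The median difference of the 12 genes was 0.32 against 0.09 for all features. Higher and lower counts were 9 and 1 with medians set equal, 1 and 3 as deposited, 2 and 4 on the hybridisation controls and 0 and 10 on the Bacillus subtilis controls. Tagln2 rose by 1.43 (adjusted p = 0.000325, limma with Benjamini-Hochberg adjustment) and Cnn2 by 1.10 (adjusted p = 7.6e-05), whereas Tpm4 fell by 0.97 (adjusted p = 0.000117). The cytoplasmic actin genes Actb, with a difference of 0.17, and Actg1, with 0.02, did not pass in this fit, but both were called higher with array medians or 75th percentiles set equal. The signs of Cnn3, at 0.081, and Myl12b, at 0.035, turned with medians set equal, those of Myh9 (-0.022), Myl6 (-0.42) and Myl12a (-0.15) in the values as deposited, and those of Actb, Actg1, Cnn2, Myh9, Myl6, Myl12a, Tpm1 and Tpm3 on the Bacillus subtilis scale.

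A ratio taken within an array removes a factor common to its probe sets, so each smooth muscle form was set over its relative in the deposited signals. The brightest probe sets did not follow the level of the arrays, since Actb read 13557 and 13593 for Med1+/+ against 13365 and 13151 for Med1-/-. Ratios over Actb therefore still moved with that level, and a signal ceiling was not tested. Changes in such a ratio show unequal change of the genes, not which of them changed. The Cnn1 over Cnn3 log2 ratio was -5.23 and -5.13 for Med1+/+ against -0.74 and -0.90 for Med1-/-, a shift of 4.36. Against Cnn2 the shift was 2.67. The Actg2 over Actb log2 ratio was -7.70 and -7.20 for Med1+/+ against -3.02 and -2.46 for Med1-/-, a shift of 4.71 with a step between replicates in each genotype.

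The Acta2 ratios, with both genes at the top of the signal range, shifted by 0.48 against Actb and by 0.54 against Actg1, sizes that are uncertain there. Myl9 shifted by 0.77 against Myl12a and by 1.65 against Myl12b. For Tpm2 the shifts were 0.58 against Tpm1, 0.55 against Tpm3 and 2.08 against Tpm4, the last being a 4.22-fold change. These ratios were all higher on the Med1-/- arrays.

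Tagln was the exception. Its log2 ratio over Tagln2 was -0.08 and 0.31 for Med1+/+ against -0.10 and -0.19 for Med1-/-, a shift of -0.26 that was smaller than the 0.28 SD of the Med1+/+ arrays. The transgelin pair thus kept a like proportion within the spread of the arrays, whereas the other ratios shifted. Tagln2 and Cnn3 were read on _x_at probe sets and Actg1 on an _s_at probe set. Matches of these to other transcripts were not tested. As members were chosen for this contrast, the ratios are a description.

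**Figure D2:**
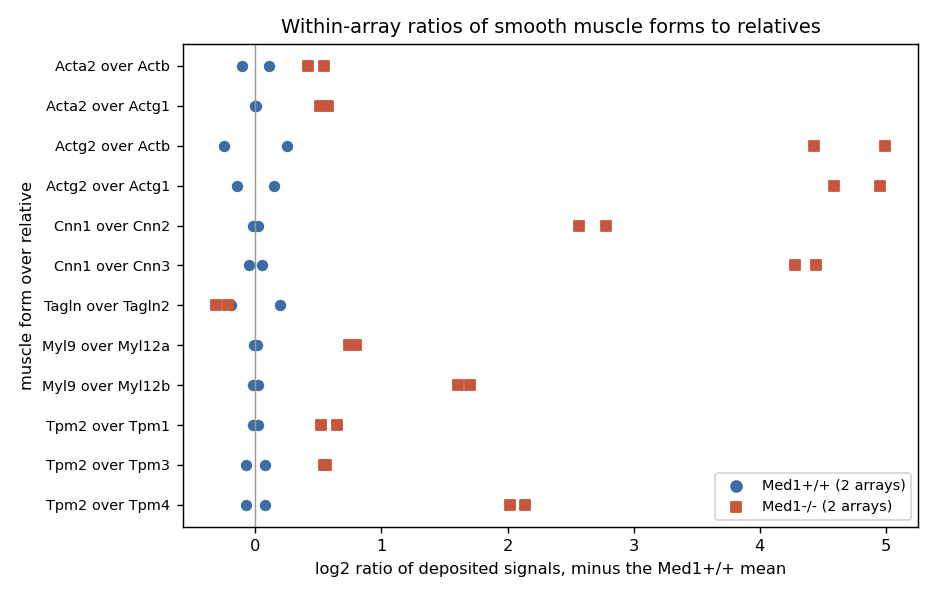
Log2 ratio of deposited signals of each smooth muscle form over a relative (vertical axis), less the Med1+/+ mean (horizontal axis). Circles are the 2 Med1+/+ arrays and squares the 2 Med1-/- arrays; 11 of the 12 ratios lie to the right in Med1-/- cells, from 0.48 for Acta2 over Actb to 4.77 for Actg2 over Actg1, and Tagln over Tagln2 lies slightly to the left.

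Other genes known from the smooth muscle cytoskeleton, its adhesions and its ion handling went both ways. Of 26 tested, 16 rose and 7 fell, beside 39.1% and 36.2% of all features, with a median difference of 0.82 against 0.09 for all features. The split changed with the scaling, to 11 higher and 9 lower when scaled by the hybridisation controls. It turned to 7 and 8 as deposited and to 4 and 15 when scaled by the Bacillus subtilis controls. Des, the muscle intermediate filament gene, rose by 3.78 (SE 0.29), the small heat shock protein gene Hspb1 by 2.82, the fibronectin receptor subunit gene Itga5 by 2.48 and the adhesion molecule gene Mcam by 2.03. Among the falls were the matrix ligand gene Npnt (-1.39), the integrin subunit gene Itgb1 (-1.17), Map1b (-1.02), the caveolin gene Cav1 (-0.85) and Lpp (-0.84). Dim genes of the list included Ppp1r14a, the inhibitor of myosin phosphatase, which gave 0.3 and 0.5 for Med1+/+ against 4.5 and 11.9 for Med1-/-, and the potassium channel subunit gene Kcnmb1 gave 2.8 and 2.0 against 8 and 8. Neither of these passed the filter, and they and the falls are named after their values were seen.

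Among genes of calcium supply and contractile receptors, 10 of 20 on the array passed the filter. Of these, 5 rose and 1 fell, beside 39.1% and 36.2% of all features. Stim1 (1.89) and Orai1 (1.66), the sensor and pore of store-operated calcium entry, and the G protein genes Gna12 (1.63) and Gna11 (1.55) rose, while Cacna1c, the pore of the L-type calcium channel of smooth muscle, fell by 1.13 (SE 0.21). Orai1, Gna12 and Gna11 came to -0.14, -0.13 and -0.083 on the Bacillus subtilis scale. As deposited, 0 were called higher and 1 lower, and the counts were 4 and 5 when scaled by the hybridisation controls and 0 and 6 by those of Bacillus subtilis. The filter left out the widest falls of the list, those of the G protein regulator genes Rgs4 (59.6 and 95.5 against 7.7 and 1.2) and Rgs2 (45.4 and 51.1 against 0.4 and 6), named after their values were seen. The number lower was 3 with no filter, with the 20th percentile filter or without Med1-/- replicate 2, and 2 without Med1-/- replicate 1. The list median exceeded that of all features by 0.33, by 0.054 with no filter and by 0.064 without Med1-/- replicate 2.

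SRF and the factors that work with it were called higher more often than lower after quantile normalization. This order was lost as deposited and on the Bacillus subtilis controls. Of 12 tested, 8 rose and 2 fell (median 1.05), beside 39.1% and 36.2% of all features. As deposited, 0 were higher and 3 lower, and the counts were 4 and 3 on the hybridisation controls and 0 and 6 on the Bacillus subtilis controls. Tead4 (2.06), Tead3 (1.77), Mrtfa (1.72), a coactivator released by actin assembly, and Srf (1.61) rose. Tead4 passed the filter through its Med1-/- values, with a mean log2 level of 4.84 in Med1+/+ and 6.90 in Med1-/- cells. Elk4 (-1.25), which competes with such coactivators for SRF, and Nfya (-0.57) fell. The related genes Elk1 (1.48) and Elk3 (0.66), named after their values were seen, were among those that rose. Myocd, the coactivator specific to heart and smooth muscle, was under the filter, with signals of 7.2 and 15.2 against 13 and 11.6. On the Bacillus subtilis scale Tead3, Mrtfa and Srf came to -0.083, -0.040 and -0.11.

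**Figure D3:**
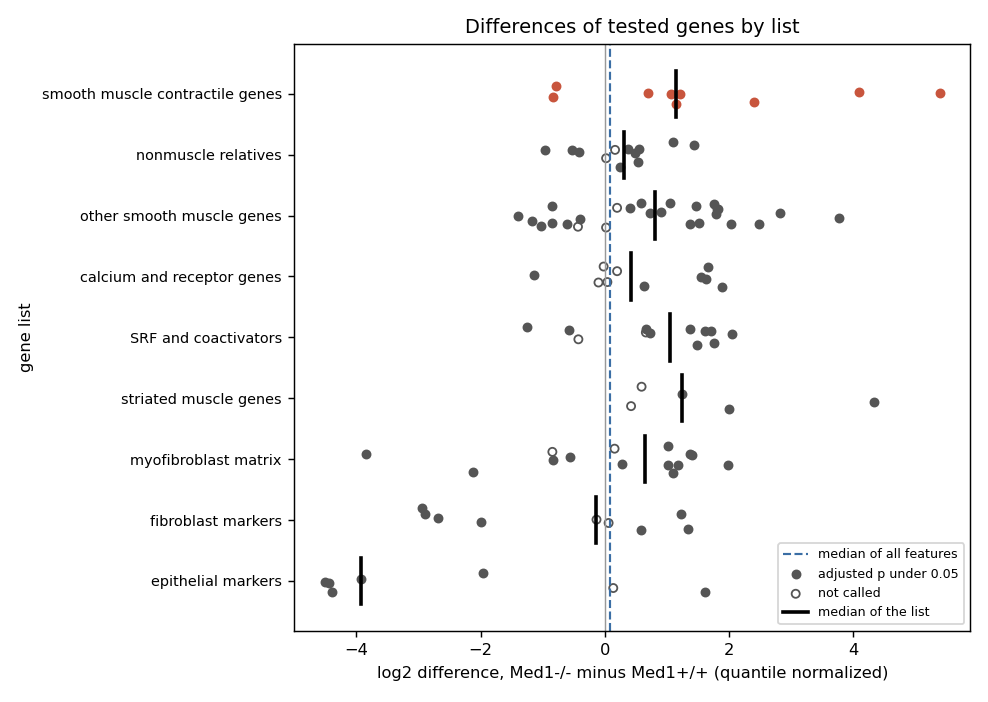
Log2 difference, Med1-/- minus Med1+/+ (horizontal axis), of every tested gene in each list described here that has 5 or more tested genes (vertical axis). Filled points passed an adjusted p of 0.05 and open points did not, black bars are list medians and the dashed line is the median of all features at 0.09; the contractile genes have a median of 1.15, and the epithelial markers lie farthest to the left.

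Striated muscle shares several of these proteins, so its markers were read beside the smooth muscle genes. Of 31 striated genes on the array, 5 passed the filter, of which 3 rose, beside 39.1% of all features: the skeletal actin gene Acta1 by 4.34 (SE 0.17), the cardiac actin gene Actc1 by 2.01 and the cardiac troponin T gene Tnnt2 by 1.25, the last turning to -0.64 on the Bacillus subtilis scale. Actc1 passed through its Med1-/- values, with a mean log2 level of 4.01 in Med1+/+ and 6.02 in Med1-/- cells. With no filter or the 20th percentile filter 1 was called lower. The widest fall among those left out was that of Mylpf, a fast skeletal light chain gene, at 24.4 and 20.2 against 1.0 and 3.6, named after its values were seen. The list median exceeded that of all features by 1.16, and by 0.43 with no filter. The number higher was 2 with medians or 75th percentiles set equal, and 1 as deposited and on both sets of control transcripts, with 3 lower on those of Bacillus subtilis. It was 2 without either of the Med1-/- replicates. The summed normalized signal of the list was 432.8 to 454.0 in Med1+/+ and 1943 to 2129 in Med1-/- cells. Acta1 alone made up most of the Med1-/- sum, with a mean log2 level of 6.14 in Med1+/+ and 10.5 in Med1-/- cells. The defining regulators were near background, with Myod1 at 2.5 and 20.6 against 10.5 and 25.6, Myog at 10.7 and 6.7 against 12.2 and 15.8, and the cardiac factor gene Nkx2-5 at 20.6 and 12.7 against 16.2 and 20.6.

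Of 10 pericyte markers, 3 passed the filter and 1 rose, beside 39.1% of all features. The riser was Mcam, which the smooth muscle list above also held. Pdgfrb, at 1317.3 and 1658.8 against 763.1 and 1188.4 (difference 0.086), and Cspg4 (-0.43) were not called. The summed signal of the list was 1329 to 1471 in Med1+/+ and 1614 to 1626 in Med1-/- cells. Rgs5, at 13.3 and 11.5 against 4.6 and 9.1, and Abcc9, at 0.3 and 0.8 against 0.2 and 0.3, were near background in both genotypes. In bulk cultures like these, more cells of a type and more RNA per cell cannot be told apart.

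Genes of the myofibroblast matrix moved both ways, 8 rising and 4 falling of 14 tested (median 0.65), beside 39.1% and 36.2% of all features. As deposited, 2 were higher and 5 lower, with 5 and 5 on the hybridisation controls and 1 and 9 on the Bacillus subtilis controls. The list median exceeded that of all features by 0.56, and by 0.94 without Med1+/+ replicate 1 and 0.88 without replicate 2. The collagen gene Col1a1 rose by 1.98 and the matricellular gene Ccn2 by 1.41, while the periostin gene Postn fell by 3.84 and the cadherin gene Cdh11 by 2.13. Fibroblast markers had 3 higher and 4 lower of 9 tested, near the 39.1% and 36.2% of all features. Thy1 (1.34), Twist1 (1.23) and Twist2 (0.58) rose, and Pdgfra (-2.95), Prrx1 (-2.89), S100a4 (-2.68) and Dcn (-1.99) fell. As deposited, 0 fibroblast markers were higher and 5 lower, and on the Bacillus subtilis controls 0 and 8. On the Bacillus subtilis scale Thy1, Twist1 and Twist2 turned to -0.14, -0.49 and -1.13, and Twist2 was also below 0 in the values as deposited, at -0.24. Their summed signal was 27617 to 29020.0 in Med1+/+ and 20427 to 20936 in Med1-/- cells, and Vim was high in both genotypes (13417 and 14451 against 12339.5 and 13502), as is usual for fibroblasts.

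Most epithelial markers tested were lower in Med1-/- cells, in a list also chosen with earlier results of these data known. Of 11 on the array 7 passed the filter, of which 5 fell and 1 rose, beside 36.2% and 39.1% of all features. The summed signal of the list was 5118 to 5273 in Med1+/+ and 2438 to 2809 in Med1-/- cells. The list median less that of all features was -4.01, and -4.51 with the 60th percentile filter. It was -1.88 with no filter and -1.98 with the 20th percentile filter, with 2 called higher under each. Cdh1 (-4.50), Krt18 (-4.45), Dsg2 (-4.39) and Dsp (-3.92) fell, Krt19 rose by 1.61, and Krt14 (0.14) was not called. Dsg2 passed the filter through its Med1+/+ values, with a mean log2 level of 8.45 in Med1+/+ and 4.06 in Med1-/- cells. Epcam was near background at 3.1 and 4.4 against 1.4 and 2.3. Endothelial markers had 2 of 8 above the filter, with Eng rising by 0.82. Blood cell markers had 2 of 7, with Cd14 rising by 0.55, beside 39.1% of all features called higher. Both Eng and Cd14 were below 0 in the values as deposited, at -0.21 and -0.45. Pecam1, Ptprc and Hba-a1 gave deposited signals under 20 on every array. The part of these other cell types in the contractile gene values was not tested.

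The genes nearest to Actg2, Cnn1 and Smtn were found by Euclidean distance over the 4 arrays after centring each gene on its mean. Nearest to Actg2 were Stmn4 (distance 0.869), Fxyd6, Acta1, Cnn1 and Aldh1a2. Cnn1 was closest to Acta1 (distance 0.436), Aldh1a2, Stmn4, Foxd1 and Six2. For Smtn they were Kazn (distance 0.114), Popdc3, Mast2, Cxxc5 and Slc7a5. With 2 arrays a genotype this distance reads little beyond the size of the genotype difference.

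The scaling of the arrays set where zero lay for the moderate differences. The median difference of all features was 0.09 after quantile normalization, 0.30 for equal medians and 0.11 for equal 75th percentiles. It was -0.76 in the values as deposited, -0.77 when scaled by the hybridisation controls and -1.64 by those of Bacillus subtilis. The median of the 9 fitted genes exceeded that of all features by 1.06 after quantile normalization and by 1.40 to 1.42 under the other 5 scalings. Those 5 differ from one another only by a factor for each array, which shifts all differences nearly alike. Their like values follow from this, and nothing is read from them. Acta2, Tagln, Myl9 and Tpm2 were each higher under 5 of the 6 scalings and lower on the Bacillus subtilis scale, whereas Mylk and Cald1 were lower under all 6.

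**Figure D4:**
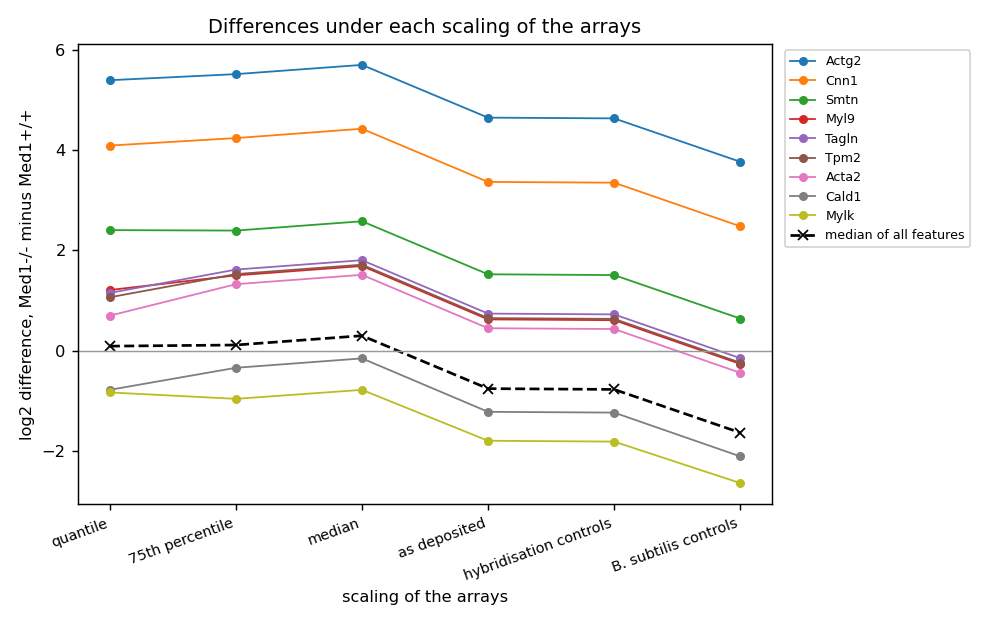
Log2 difference, Med1-/- minus Med1+/+ (vertical axis), of the 9 fitted genes under 6 ways of scaling the arrays (horizontal axis), with the median of all features as a dashed line. Actg2, Cnn1 and Smtn, whose large differences were known beforehand, stay above 0 throughout. Mylk and Cald1 stay below 0, and Acta2, Tagln, Myl9 and Tpm2 cross it on the Bacillus subtilis controls, at -0.44, -0.15, -0.26 and -0.24.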

How the data were processed

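Total RNA was labelled with biotin by the 3' IVT Express Kit, per the labels' protocols, and hybridised to 4 arrays. The deposited table gives, for each probe set, a linear signal intensity on every array. The authors' probe summary, background correction and scaling are not given in the sources used. Of 22690 probe sets, 64 controls were left out. The other 22626 were quantile normalized and taken as log2(value + 1.7), the 10th percentile of the table. Those with mean log2 values below the 40th percentile (9050) were dropped, and each gene was represented by its brightest probe set. Fold changes on this scale understate dim genes. The platform annotation supplied symbols, brought up to date by Entrez identifier against RefSeq GRCm38.p6: 20380 probe sets had 1 symbol, 691 several and 1555 none.

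Genotypes were compared by lmFit and eBayes with trend of limma 3.58.1, run under R 4.3.3 (two-sided; 2 residual and 4.71 prior degrees of freedom), adjusted over 8923 features. SDs are of the 2 arrays and SEs are limma's; for probe sets left out of that fit, SEs are from a fit of all probe sets. Promoter windows were searched by exact letter matching. Figures used matplotlib 3.10.9 in Python 3.11.15.

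The genes and lists were chosen with earlier results of these data known. The naming rule gave all 10 genes, every tested relative, in each other list up to 4 called genes of largest change with any minority of 3 or fewer, and the 5 nearest genes to each of Actg2, Cnn1 and Smtn. Other named genes were chosen after their values were seen. Protein sequences were not used here, and 1 gene list, which held Limk1, is not reported here. The number of arrays limits the precision. Alternatives varied the filter, scaling, pseudocount, probe set choice, variance model, replicate block, arrays and threshold.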

Additional observations from a re-analysis of the deposited data

How the results depend on the processing

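The deposited arrays differ in overall signal by genotype, so the scaling sets the sign of moderate differences, and 2 arrays a genotype limit the precision. Signals near background limit Myh11, Mylk and the dim markers. The part of the Acta2 suffix in its value was not tested, nor was that of RNA integrity or of embryo sex. Over the differences of 73 named genes, 1365 recomputed values kept their direction and side of the threshold, 70 lost the call, 6 gained it and 39 reversed. Over the 8 gene lists with 5 or more tested genes, 283 recomputed counts were within 1.5 times the reported one and 53 were not, and of the medians less that of all features 126 moved by under 0.2, 41 by more and 1 reversed. The cause was not tested.

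The share of calls that were higher was 51.9% after quantile normalization, 59.9% with medians and 52.9% with 75th percentiles set equal, 6.45% as deposited, 18.1% scaled by the hybridisation controls and 1.58% by the Bacillus subtilis controls. Genes called numbered 6722, and 4109 as deposited or 3605 at 2-fold or more. Of the contractile genes, 3 were called higher as deposited and on the Bacillus subtilis controls (Actg2, Cnn1 and Smtn), and 4 of the 6 tested without _s_at, _x_at and _a_at probe sets. The number called lower was 1 without the filter, with the 60th percentile filter, with medians or 75th percentiles set equal and at an adjusted p under 0.01, and 0 at 2-fold or more. Leaving out each array gave 5821 to 6512 genes called, 7 to 8 contractile genes higher (8 with Myh11, without Med1+/+ replicate 2) and 1 to 2 lower (1 without Med1+/+ replicate 1 or 2, where Mylk was lost). The fibroblast list's median minus that of all features ran from -0.43 to 3.97e-05 over these.

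With the replicate number as a block, 7325 genes were called, and the same 7 contractile genes were higher and the same 2 lower. Deviations of same-numbered arrays had a correlation of 0.30, but with 2 pairs this does not establish pairing.

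Reversed with medians set equal were Cnn3 (0.081) and Myl12b (0.035). Reversed as deposited were Myh9 (-0.022), Myl6 (-0.42), Myl12a (-0.15), Twist2 (-0.24), Eng (-0.21) and Cd14 (-0.45), and on the hybridisation controls Myh9 (-0.038), Myl6 (-0.44), Myl12a (-0.16), Twist2 (-0.26), Eng (-0.22) and Cd14 (-0.47). Reversed on the Bacillus subtilis controls were Acta2 (-0.44), Tagln (-0.15), Myl9 (-0.26), Tpm2 (-0.24), Actb (-0.92), Actg1 (-0.98), Cnn2 (-0.18), Myh9 (-0.91), Myl6 (-1.30), Myl12a (-1.03), Tpm1 (-0.82), Tpm3 (-0.79), Limk1 (-0.016), Orai1 (-0.14), Gna12 (-0.13), Gna11 (-0.083), Tead3 (-0.083), Mrtfa (-0.040), Srf (-0.11), Tnnt2 (-0.64), Thy1 (-0.14), Twist1 (-0.49), Twist2 (-1.13), Eng (-1.07) and Cd14 (-1.33).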
